A study of Mus musculus with 4 samples.

Results

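The genes described are 9 transcription regulators of haematopoietic stem cells, Hlf, Mecom, Erg, Meis1, Mllt3, Hoxa9, Hoxa7, Hoxb4 and Hoxb5, chosen by their symbols, which each match 1 of the 55357 genes of the files. They were measured by single-cell RNA-seq in LSK cells sorted from mouse bone marrow, a fraction without lineage markers but with Sca-1 and Kit that holds stem cells and early progenitors. Wild-type mice had been given Yoda1, a chemical agonist of Piezo1, an ion channel gated by force on the membrane, intraperitoneally for 2 weeks, and the controls had been given vehicle. Each group had 2 libraries, called control 1, control 2, Yoda1 1 and Yoda1 2, and values listed per library follow that order. The labels give no strain, sex, age or dose and do not state that each library is a different mouse. The tests therefore weigh differences against the spread of these 4 libraries alone, part of which may be technical.

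Blood stem cells are held in their state by a small circuit of DNA-binding proteins that is dismantled as cells commit to a lineage. Hox proteins bind DNA together with cofactors of the TALE class, such as Meis1, and the Hox genes themselves are kept active by chromatin complexes that contain the methyltransferase encoded by Kmt2a. Several of the same genes drive leukaemia when they are switched on at the wrong stage, and loss of most of them weakens stem cell self-renewal.

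Cells with at least 500 genes, at least 1000 UMIs (unique molecular identifiers, each counting 1 captured RNA molecule) and at most 10% mitochondrial UMIs were kept, which left 7620, 7822, 9122 and 9756 cells with median depths of 11220, 9410.5, 10183.5 and 7311 UMIs. Of the cell barcodes, 146 occurred in more than 1 library, 119 of them among kept cells (counted over pairs of libraries). Levels are UMIs summed over cells and scaled to 1000000 UMIs of the same cells (CPM). Lineages were gated in cells thinned to 3000 UMIs, by at least 2 distinct markers of a lineage and more than of any other, and no gate used any of the 9 genes. The stem gate held 100, 156, 248 and 1051 cells, or 1.35%, 2.06%, 2.77% and 11.3% of the thinned cells. Stem markers that the gate did not use (Tek, Vwf, Angpt1, Cdkn1c, Gng11 and Myct1) summed to 654 to 724 CPM there, against at most 429 CPM in any library of the lymphoid, granulocyte-monocyte (GM) or megakaryocyte-erythroid (MkE) gate. In cells of no gate they summed to 303 to 449 CPM. The markers of the MkE gate also summed to 3251, 4189, 1674 and 378 CPM in the stem gate, so it was not free of that programme. Yoda1 2 stood apart in make-up, with 23.6% of its cells in the lymphoid gate, 13.1% in the GM gate and 5.55% in the MkE gate, where the other 3 libraries had 4.22% to 11.7%, 43.5% to 52.5% and 18.1% to 23.4%. Results that rest on that library are given with and without it.

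All 9 genes lie on the GRCm38 build at the positions that GENCODE M21 gives. Hlf spans chromosome 11 from 90336536 to 90390895, Mecom chromosome 3 from 29951296 to 30548008, Erg chromosome 16 from 95359169 to 95586593, Meis1 chromosome 11 from 18879817 to 19018985 and Mllt3 chromosome 4 from 87769925 to 88033364, all on the minus strand. Hoxa7 (52214491 to 52221854) and Hoxa9 (52223100 to 52231089) are neighbours on the minus strand of chromosome 6, and Hoxb5 (96303336 to 96306121) and Hoxb4 (96318267 to 96321638) lie near each other on the plus strand of chromosome 11. The counts give 1 value for a whole gene, whichever of its exons, introns or UTRs a read came from. Transcripts annotated on the opposite strand overlap Mecom (Mecomos and Gm37024), Meis1 (Gm16140 and Gm16141), Hoxa7 (Hoxaas3) and Hoxb5 (Hoxb5os). Whether the counting used strand was not given in the sources used here, so reads of those pairs may not be separable. Promoter sequences were given by RefSeq (GRCm38.p6) for 8 of the 9 genes, all but Hoxb5. The 250 bases before the start that RefSeq lists for 3 genes are shown, Hlf as the member with the largest fold change between the stem and MkE gates, Mecom because of the members its levels ran closest to those of Hlf, and Hoxa9 because it held the most copies of the core motif bound by ETS factors such as Erg. Capitals mark that core, GGAA on either strand (TTCC on the strand shown). The windows of Mecom and Hoxa9 lie within the longer GENCODE span of the gene, and that of Hlf lies outside it.
Hlf, chr11:90390918-90391167, minus strand: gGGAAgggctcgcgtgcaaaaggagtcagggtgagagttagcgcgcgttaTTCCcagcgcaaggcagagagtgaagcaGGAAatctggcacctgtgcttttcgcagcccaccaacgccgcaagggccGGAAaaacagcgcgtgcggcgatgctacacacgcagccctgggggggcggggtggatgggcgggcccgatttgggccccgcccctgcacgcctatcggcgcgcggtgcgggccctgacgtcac
Mecom, chr3:30509760-30510009, minus strand: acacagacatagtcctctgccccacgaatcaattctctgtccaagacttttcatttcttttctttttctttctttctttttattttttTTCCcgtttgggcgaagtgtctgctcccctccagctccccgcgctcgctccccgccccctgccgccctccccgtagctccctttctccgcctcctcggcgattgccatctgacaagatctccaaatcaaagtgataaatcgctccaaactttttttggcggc
Hoxa9, chr6:52227371-52227620, minus strand: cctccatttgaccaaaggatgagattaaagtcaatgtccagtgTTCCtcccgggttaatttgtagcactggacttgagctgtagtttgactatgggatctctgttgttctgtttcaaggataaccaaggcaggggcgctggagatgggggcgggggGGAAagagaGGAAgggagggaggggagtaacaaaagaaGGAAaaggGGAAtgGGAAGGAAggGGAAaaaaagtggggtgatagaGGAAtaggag
The motif matched 4 times before Hlf, 1 time before Mecom and 9 times before Hoxa9, and 93.4% of 27025 mouse promoter windows of the same length hold at least 1 match, so a match sets none of these genes apart. Erg, itself an ETS factor, had 0 matches to GGAA and 7 to the homeodomain core ATTA, which 55.4% of windows hold. Of the other cores searched on both strands, the Meis motif TGACAG (15.9% of windows) matched before 0 of the 8 genes, and the GATA motif GATAA (23.0% of windows) 1 time each before Mecom and Hoxa9. Matches of different motifs could overlap. These are matches of letters and not binding sites.

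Across the 4 lineages the stem gate carried the highest mean level of 7 of the 9 genes, and the fall from there to the committed gates was steepest for Hlf, Mecom and Hoxb5, and to the lymphoid and GM gates also for Mllt3. Hoxa9 and Hoxa7 had another order, with their highest mean in the lymphoid gate. The comparison used sums per library and gate, with library as a block, in edgeR's quasi-likelihood test with Benjamini-Hochberg adjustment over all genes tested. Of the 9 genes, 7 were higher and 1 lower in the stem gate than in the lymphoid gate, where 13.6% of 11840 genes were called higher and 13.9% lower. Against the GM gate 8 were higher, with 22.7% of 13341 genes called higher and 24.9% lower, and against the MkE gate all 9 were higher, with 26.3% of 12555 called higher and 26.2% lower. The members' median log2 fold changes were 0.90, 1.49 and 1.40 in these comparisons, beside medians of 0.00, 0.03 and 0.02 over all genes tested. Depth differed between the gates. Stem gate cells held 6697 to 8310 UMIs on average per library and lymphoid gate cells 7984 to 9201. GM gate cells held 11697 to 14477 and MkE gate cells 13070 to 15806. The part of depth, and of any difference in cell division between gates, was not tested.

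**Figure D1:**
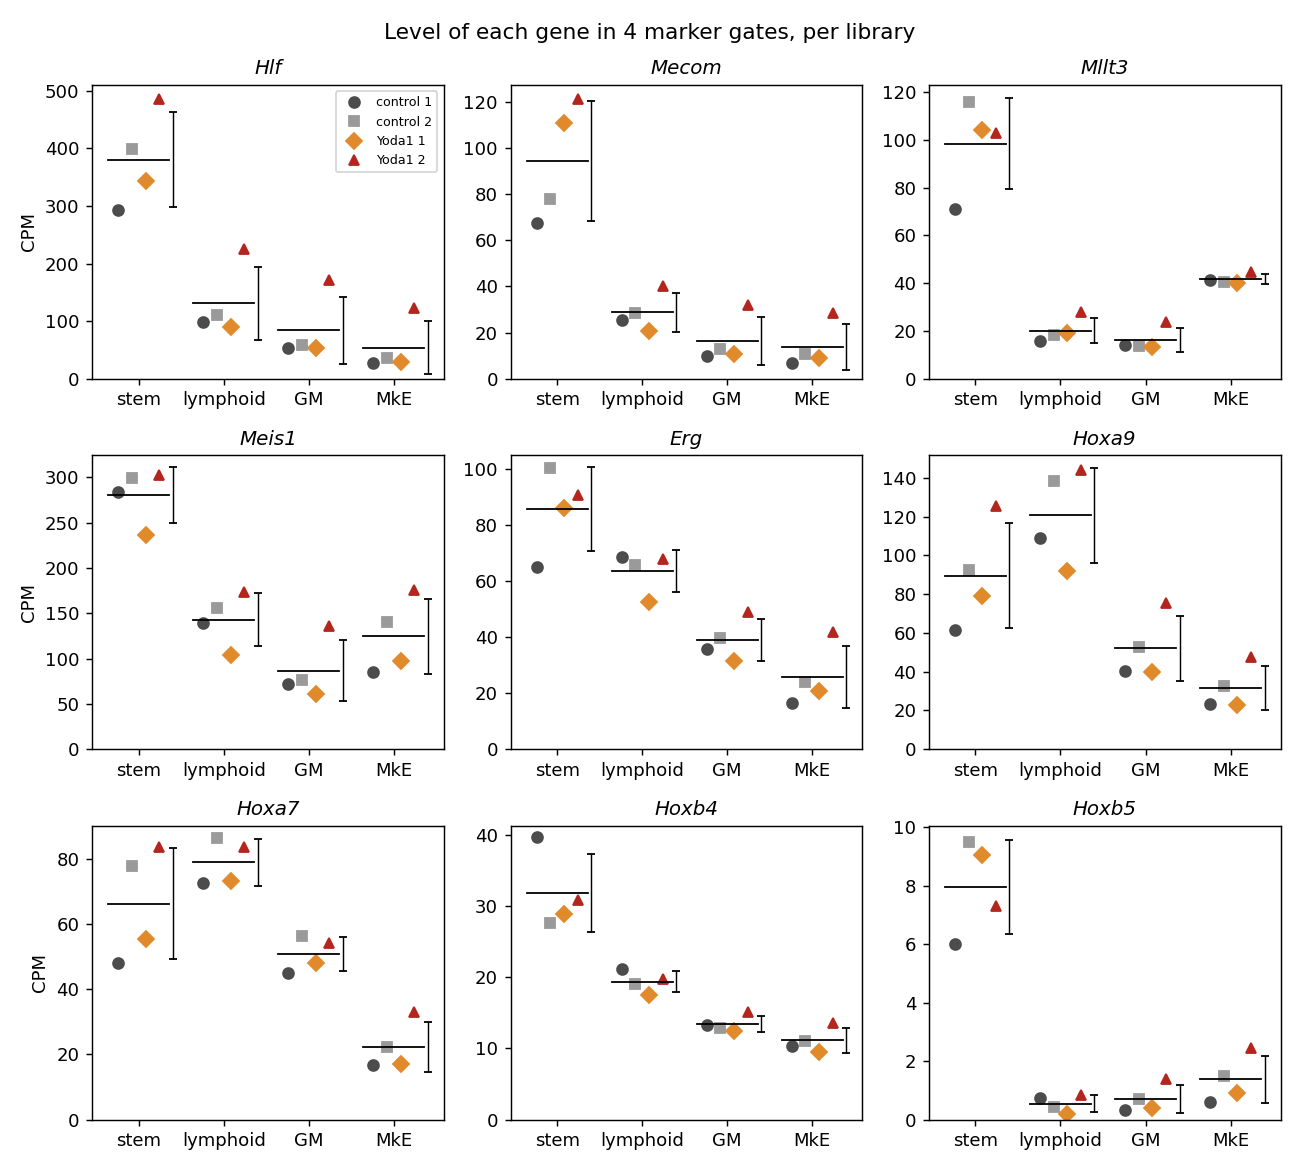
Level (CPM, linear axis from 0) of each of the 9 genes in the stem, lymphoid, GM and MkE gates; points are libraries, the line is the mean of the 4 libraries and the bar beside it their SD. Hlf falls from a mean of 380.4 CPM in the stem gate to 54.1 in the MkE gate, while Hoxa9 and Hoxa7 peak in the lymphoid gate.

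Hlf encodes a basic leucine zipper factor of the PAR family that marks stem cells and is lost on differentiation. It was at 294, 398, 343 and 486 CPM in the stem gate, 99.2, 111, 89.3 and 225 in the lymphoid gate, 53.3, 59.2, 53.1 and 172 in the GM gate and 27.9, 35.9, 29.7 and 123 in the MkE gate. Each library had the same order of gates, and Yoda1 2 was the highest library in each gate. The log2 fold change of the stem gate was 1.51 ± 0.10 (SE) against the lymphoid gate, 2.08 ± 0.14 against the GM gate and 2.87 ± 0.19 against the MkE gate, with adjusted p = 3.56e-09, 1.20e-08 and 8.74e-08 from edgeR. The lymphoid and GM means were 131 ± 63.2 and 84.4 ± 58.4 CPM (SD, n = 4 libraries), with the lymphoid value the higher in each library, and this pair of gates was not tested. With at least 3 gate markers the log2 fold change was 2.71 against the GM gate and 3.57 against the MkE gate.

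Mecom, which encodes the zinc finger factor also called Evi1 and is needed for stem cell self-renewal, was at 67.4, 77.8, 111 and 122 CPM in the stem gate. It was at 25.6, 28.4, 20.6 and 40.4 in the lymphoid gate, 9.83, 12.8, 10.6 and 32.0 in the GM gate and 6.64, 10.7, 8.85 and 28.4 in the MkE gate. The lowest stem gate library was above the highest library of every other gate. Log2 fold changes of the stem gate were 1.65 ± 0.12, 2.37 ± 0.17 and 2.74 ± 0.19 against the lymphoid, GM and MkE gates, with edgeR adjusted p = 1.56e-08, 1.77e-08 and 1.33e-07. The GM and MkE means were 16.3 ± 10.5 and 13.6 ± 9.99 CPM, with the GM value the higher in each library, and this pair of gates was not tested. With at least 3 gate markers the log2 fold change was 3.22 against the GM gate and 3.71 against the MkE gate.

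Erg, an ETS factor of stem cells, megakaryocytes and early lymphoid cells, was at 65.0, 100.3, 86.1 and 90.7 CPM in the stem gate and 68.4, 65.8, 52.4 and 67.7 in the lymphoid gate. These ranges overlapped, because control 1 had 65.0 CPM in the stem gate and 68.4 in the lymphoid gate. The log2 fold change was 0.39 ± 0.10 with an edgeR adjusted p = 0.00611, and without Yoda1 1 it was 0.30 with an adjusted p = 0.0750. Without the library block its adjusted p was 0.0542. Erg was at 35.9, 39.5, 31.3 and 49.0 CPM in the GM gate and 16.6, 23.9, 20.6 and 41.9 in the MkE gate, with log2 fold changes of the stem gate of 0.90 ± 0.10 and 1.57 ± 0.14 (edgeR adjusted p = 2.00e-06 and 1.21e-06).

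The cofactors differed in which committed gate kept them. Meis1, the TALE homeodomain partner of Hox proteins, was at 284, 299, 236 and 303 CPM in the stem gate, 139, 155, 104 and 173 in the lymphoid gate, 71.7, 76.5, 61.4 and 136 in the GM gate and 84.8, 140.4, 96.8 and 175 in the MkE gate. Every library was highest in the stem gate, with log2 fold changes of 0.90 ± 0.068, 1.49 ± 0.11 and 1.02 ± 0.10 against the 3 other gates (edgeR adjusted p = 1.57e-08, 1.82e-08 and 2.99e-06). The lymphoid and MkE means were 143 ± 29.5 and 124 ± 41.6 CPM, with the lymphoid value the higher in 3 of 4 libraries, and this pair was not tested. Mllt3 encodes AF9, a reader of acylated histones in the super elongation complex that supports stem cell maintenance and megakaryocyte-erythroid fate. It was at 71.0, 116, 104 and 103 CPM in the stem gate and at 41.3, 40.3, 40.0 and 44.5 in the MkE gate, whose 4 libraries were all above the 15.6, 18.1, 19.0 and 27.8 of the lymphoid gate and the 14.1, 13.7, 13.3 and 23.7 of the GM gate. The log2 fold change of the stem gate was 1.07 ± 0.11 against the MkE gate and larger against the lymphoid gate (2.15 ± 0.12) and the GM gate (2.38 ± 0.14), with edgeR adjusted p = 3.33e-06, 3.70e-10 and 1.21e-09. With at least 3 gate markers that against the GM gate was 3.06.

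Of the Hoxa cluster, Hoxa9, a homeodomain factor of stem and early lymphoid-myeloid progenitors, was at 61.4, 92.5, 78.9 and 125 CPM in the stem gate and 109, 138, 91.7 and 144 in the lymphoid gate. Each library was higher in the lymphoid gate than in its own stem gate, although the ranges of the gates overlapped. The log2 fold change of the stem gate was -0.44 ± 0.093 against the lymphoid gate, 0.56 ± 0.080 against the GM gate (40.3, 52.8, 39.9 and 75.6 CPM) and 1.34 ± 0.094 against the MkE gate (23.4, 32.8, 23.0 and 47.4 CPM), with edgeR adjusted p = 0.00126, 2.73e-05 and 1.24e-07. Without the library block the difference from the lymphoid gate was -0.45 with an adjusted p = 0.126. Its neighbour Hoxa7 was at 48.1, 77.8, 55.4 and 83.4 CPM in the stem gate, 72.4, 86.4, 73.1 and 83.5 in the lymphoid gate, 44.9, 56.2, 48.1 and 54.1 in the GM gate and 16.8, 22.3, 17.0 and 32.9 in the MkE gate. It passed only against the MkE gate among these tests, with a log2 fold change of 1.40 ± 0.11 (edgeR adjusted p = 2.47e-07), and had -0.27 ± 0.10 against the lymphoid gate (adjusted p = 0.0514) and 0.18 ± 0.10 against the GM gate (adjusted p = 0.147). Its call against the lymphoid gate depended on the processing: with RLE normalization the adjusted p was 0.0477, and without Yoda1 2 the log2 fold change was -0.42 with an adjusted p = 0.00783. Against the GM gate its log2 fold change was -0.012 without Yoda1 2, and with at least 3 gate markers it passed (adjusted p = 0.0402).

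The Hoxb genes had a stem-gate maximum. Hoxb4, which expands stem cells when it is overexpressed, was at 39.7, 27.7, 28.9 and 30.8 CPM in the stem gate, 21.2, 19.1, 17.5 and 19.7 in the lymphoid gate, 13.3, 12.9, 12.5 and 15.1 in the GM gate and 10.3, 11.1, 9.55 and 13.6 in the MkE gate. The stem gate lay above all libraries of the other gates, with log2 fold changes of 0.61 ± 0.12, 0.96 ± 0.13 and 1.29 ± 0.15 (edgeR adjusted p = 6.29e-04, 1.46e-05 and 7.35e-06). Hoxb5, used as a marker of long-term repopulating stem cells, was rare. It was at 6.02, 9.51, 9.03 and 7.30 CPM in the stem gate, 0.743, 0.424, 0.183 and 0.845 in the lymphoid gate, 0.338, 0.693, 0.401 and 1.40 in the GM gate and 0.621, 1.48, 0.922 and 2.47 in the MkE gate, and no stem gate library overlapped any library of the others. The fitted log2 fold changes of the stem gate were 3.57 ± 0.37, 3.32 ± 0.40 and 2.38 ± 0.35, with edgeR adjusted p = 6.56e-07, 4.23e-06 and 7.73e-05. The lymphoid values rest on 2, 3, 1 and 17 UMIs and the stem gate values on 5, 11, 15 and 58, so 3 lymphoid libraries were at or under 3 counts. The fold change against the lymphoid gate was 4.38 without Yoda1 2, and with at least 3 gate markers those against the GM and MkE gates were 4.12 and 3.44.

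Other genes of the circuit followed less uniformly. Of 20 other stem and progenitor transcription factors, all tested, 11 were higher and 1 lower in the stem gate than in the lymphoid gate, 13 higher and 3 lower than in the GM gate, and 11 higher and 3 lower than in the MkE gate. Gata2, a zinc finger factor of stem and mast cell programmes, had log2 fold changes of 2.48 ± 0.13 and 1.19 ± 0.10 against the lymphoid and GM gates, with edgeR adjusted p = 2.97e-10 and 1.24e-07. Mycn, a Myc family factor, had 1.51 ± 0.11 and 2.47 ± 0.18 in the same comparisons, and Tal1, a basic helix-loop-helix factor, had 1.58 ± 0.13 against the lymphoid gate. Against the MkE gate the rule for named genes took Lyl1 (0.97 ± 0.074), Lmo2 (0.67 ± 0.059) and Hmga2 (1.62 ± 0.16), each with an edgeR adjusted p at or under 2.65e-06.

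Among 35 other Hox genes, few had counts to test. Of 6 tested against the lymphoid gate 3 were higher in the stem gate, named after their values were seen: Hoxb2 (2.40 ± 0.27), Hoxb3 (1.50 ± 0.21) and Hoxa10 (0.75 ± 0.13). Against the GM gate 6 of 8 tested were higher, and against the MkE gate 5 of 6, with 0 lower in each comparison. Hoxb2 and Hoxb3 belong to the same cluster as Hoxb4 and Hoxb5. Of 16 Hox regulators and partners, 13 were tested in each comparison. The calls were mixed, with 4 higher and 1 lower against the lymphoid gate, 4 and 2 against the GM gate, and 3 and 4 against the MkE gate. Over all genes the shares higher and lower were 13.6% and 13.9%, 22.7% and 24.9%, and 26.3% and 26.2%. Pbx3, a Hox partner, was higher in the stem gate by 1.51 ± 0.15 (log2) than in the lymphoid gate, and Kmt2a, the methyltransferase that keeps Hox genes active, by 0.73 ± 0.074 than in the GM gate. Ezh2, the Polycomb methyltransferase that silences Hox genes, was lower in the stem gate than in each of the 3 others (-0.54 ± 0.071, -0.55 ± 0.068 and -0.78 ± 0.073). Inside the stem gate Ezh2 was higher in dividing cells, as given below, and the part of cell division in these differences was not tested.

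Within the stem gate, cells in division had lower levels of the stem cell genes than cells without cycling transcripts. Cycling cells were those with at least 2 of Mki67, Top2a, Ccnb1, Cenpf, Ube2c and Birc5 in 3000 UMIs (27, 29, 59 and 166 cells), and non-cycling cells had none (45, 93, 113 and 689 cells). Of 8 members tested, 7 were lower in cycling cells by edgeR's quasi-likelihood test with library as a block, where 11% of 7293 genes were called lower and 13% higher. The members' median log2 fold change was -0.57, and that of all genes tested was -0.03. Hlf was at 400.3, 484, 453 and 542 CPM in non-cycling and 209.9, 241, 217 and 342 in cycling cells, a log2 fold change of -0.86 ± 0.084 (adjusted p = 4.71e-10). All 4 cycling values lay below all 4 non-cycling values.

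Mllt3 had the largest fold change of the 8, from 99.3, 139.9, 153 and 119 CPM in non-cycling to 26.7, 47.5, 62.7 and 57.1 in cycling cells, or -1.23 ± 0.13 on the log2 scale (edgeR adjusted p = 4.63e-09). Mecom was at 96.3, 92.7, 156 and 135 CPM and 46.6, 34.8, 69.9 and 95.7 CPM, lower in cycling cells in each library, with a log2 fold change of -0.74 ± 0.13 (edgeR adjusted p = 3.75e-05). Yoda1 2 had about as much Mecom in cycling cells as control 1 had in non-cycling cells. The log2 fold change was -0.42 for Meis1, -0.55 for Erg, -0.58 for Hoxa7 and -0.40 for Hoxa9, with edgeR adjusted p = 4.41e-04, 0.00241, 0.00184 and 0.0175. Erg was not lower in every library, with 105, 121, 80.3 and 104 CPM in non-cycling and 43.3, 79.1, 80.6 and 69.2 CPM in cycling cells. Hoxb4 missed the threshold (-0.50 ± 0.21, edgeR adjusted p = 0.0787), and control 2 had more of it in cycling cells. Hoxb5 had too few counts to be tested, with 0, 0, 0 and 6 UMIs in cycling cells and 4, 8, 11 and 43 in non-cycling cells. A count of 0 allows up to 10.0, 9.50 and 5.37 CPM in the 3 libraries without a UMI, taking 3 counts as the limit.

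**Figure D2:**
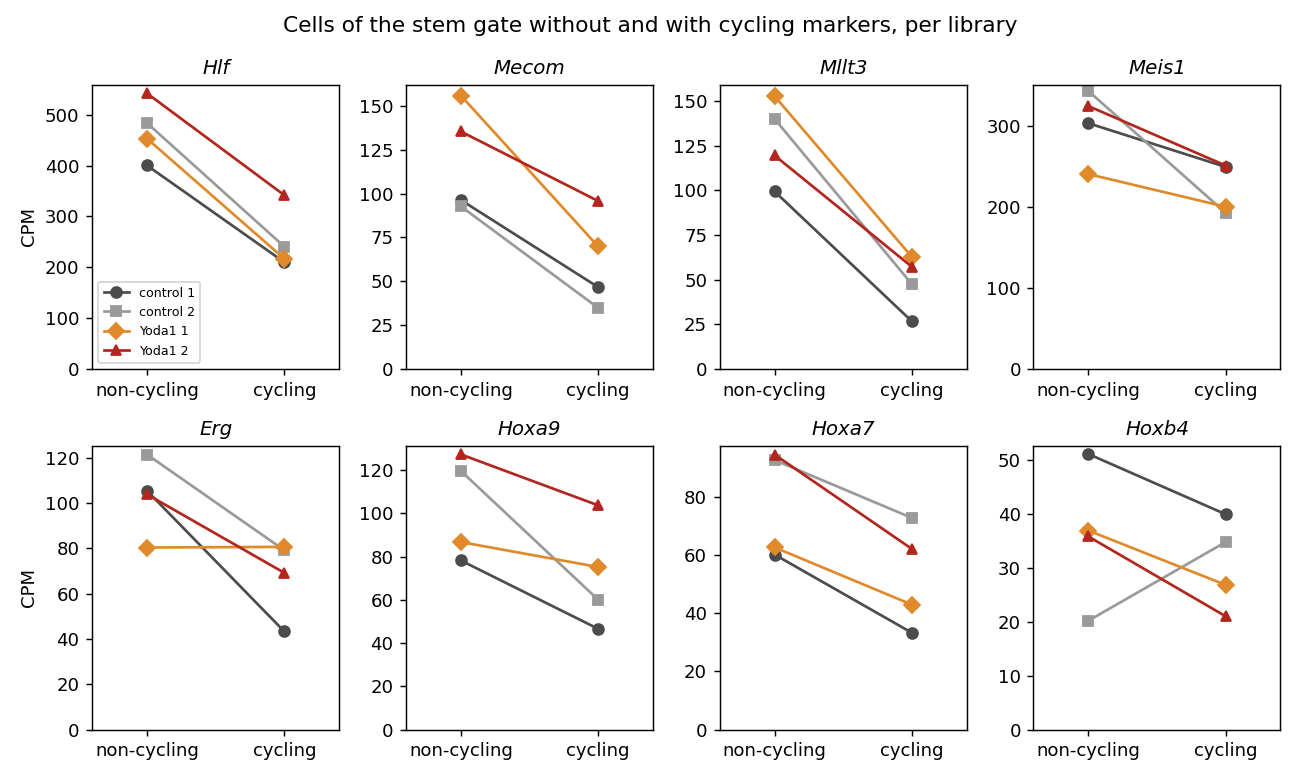
Level (CPM, linear axes from 0) of 8 genes in non-cycling and cycling cells of the stem gate; each line joins the 2 values of 1 library. Hlf, Mecom, Mllt3, Meis1, Hoxa9 and Hoxa7 descend in all 4 libraries, and Hoxb4 ascends in control 2.

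Depth moved with this comparison, since cycling cells held 9462 to 12019 UMIs on average per library and non-cycling cells 5508 to 7384, and its part in the result was not tested. Only 4 members were called by DESeq2, without the library block, or without Yoda1 2, which held most of the cells. In all 3 settings Hlf, Mecom, Mllt3 and Meis1 stayed under an adjusted p of 0.05, and Erg, Hoxa9 and Hoxa7 did not. Hoxa9 also missed it without control 2 (adjusted p = 0.0807), without Yoda1 1 (0.0530) and with no filter (0.0749), and Erg with 3 gate markers (0.0925) and with gates on unthinned counts (0.0527). Hoxb4 passed without control 2 (0.0192) and with gates on unthinned counts (0.0278). Of 17 other stem cell factors tested, 6 were lower. Mycn (-1.05 ± 0.16), Nkx2-3 (-0.82 ± 0.15) and Lmo2 (-0.33 ± 0.063) were among them. Both other Hox genes tested, Hoxa10 (-0.87 ± 0.23) and Hoxa5 (-0.67 ± 0.25), were lower. Of 12 Hox regulators tested 3 were higher in cycling cells, Ezh2 (1.47 ± 0.10), Psip1, which tethers Kmt2a complexes to chromatin (0.66 ± 0.091), and the TALE factor gene Pknox1 (0.61 ± 0.20).

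Summed over all kept cells, each of the 9 genes was highest in Yoda1 2, and in Yoda1 1 none was above both controls. No member passed the test between Yoda1 and control. In such sums a change in the number of cells of a type and a change in RNA per cell cannot be told apart. edgeR called 0 of 18182 genes (0%), although 148 had an unadjusted p under 0.05 with a higher level and 161 with a lower one, and DESeq2 called 0 members and 5 genes. The members' fold changes were above 0 for 9 of 9, with a median of 0.40 on the log2 scale beside 0.01 over all genes tested.

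Over all cells Hlf measured 58.9, 78.4, 72.0 and 272 CPM, and its log2 fold change was 1.23 ± 0.49 (unadjusted p = 0.0422, edgeR adjusted p = 0.9999). Mecom was at 11.8, 17.9, 16.7 and 55.2 CPM (1.19 ± 0.46, unadjusted p = 0.0370, edgeR adjusted p = 0.9999). In both genes Yoda1 2 was over 3 times the highest other library and Yoda1 1 lay between the controls. Erg was at 33.6, 43.2, 35.6 and 67.5, Meis1 at 90.9, 116, 89.1 and 198 and Mllt3 at 24.3, 23.6, 23.3 and 41.2 CPM, with log2 fold changes of 0.36 ± 0.25, 0.40 ± 0.31 and 0.36 ± 0.23. For Meis1 and Mllt3 Yoda1 1 was the lowest of the 4 libraries, as it was for Hoxb4. Of the Hox genes, Hoxa9 was at 39.8, 60.2, 43.3 and 108 CPM, Hoxa7 at 38.2, 52.3, 44.8 and 68.8, Hoxb4 at 13.5, 14.3, 13.3 and 20.4 and Hoxb5 at 0.582, 1.02, 0.805 and 2.50, with log2 fold changes of 0.52 ± 0.36, 0.27 ± 0.21, 0.21 ± 0.21 and 0.96 ± 0.55. The groups overlapped for all 9, while 9.4% of the genes tested had both Yoda1 libraries above both controls.

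**Figure D3:**
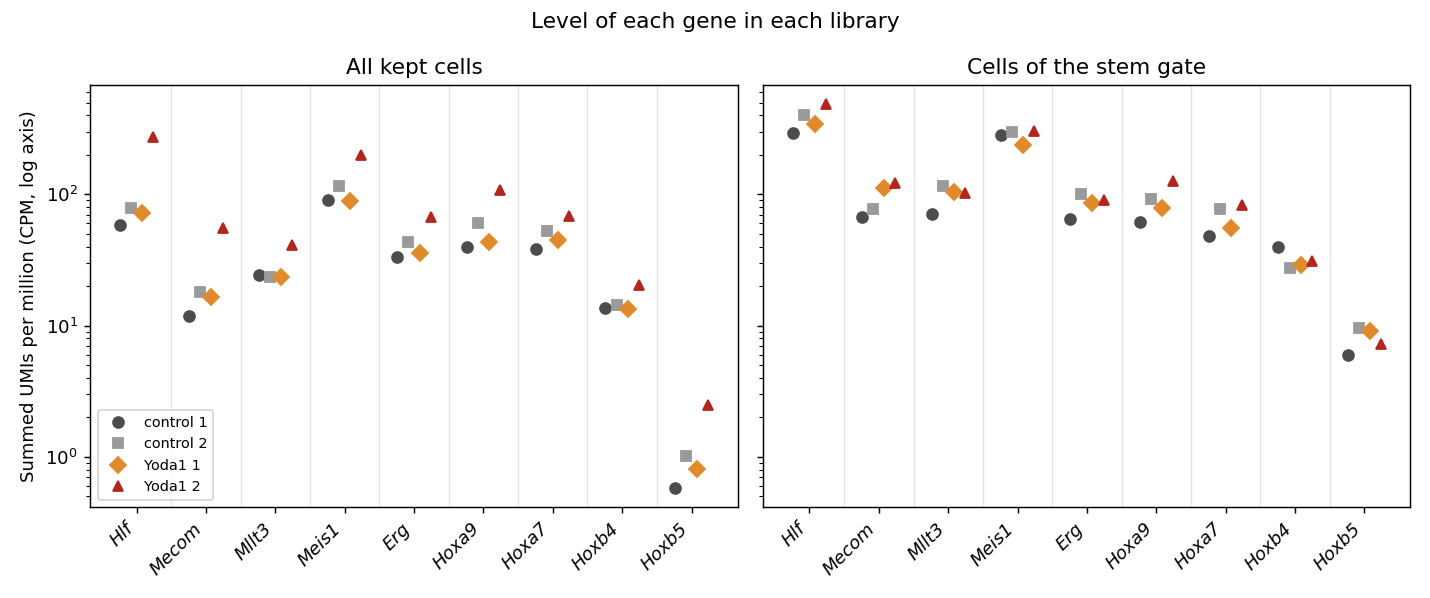
Level (CPM, log axis) of each gene in each of the 4 libraries, over all kept cells (left) and in the stem gate (right). Over all cells Yoda1 2 is the highest library for every gene. In the stem gate it is not the highest for Mllt3, Erg, Hoxb4 and Hoxb5. The libraries still differ there, with Hlf from 294 to 486 CPM and Hoxa9 from 61.4 to 125. Mecom is the one gene with both Yoda1 libraries above both controls in the stem gate.

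The 2 Yoda1 libraries, set one by one against the mean of the controls, differed in the members. Yoda1 1 was above the controls for 3 of 9 members, with a median log2 ratio of CPM + 1 of -0.04, and 33.3% of all genes tested were above. Yoda1 2 was above for 9 of 9, with a median of 0.93 and 3 members over 2-fold, where 66.3% of all genes were above and 1.96% over 2-fold. Both use the same controls. Without Yoda1 1, edgeR called 5 members higher, Hlf (1.83, adjusted p = 4.46e-07), Mecom (1.74, 2.31e-06), Hoxa9 (0.96, 0.00470), Meis1 (0.78, 0.0252) and Hoxb5 (1.49, 0.0360), with 2.62% of 18903 genes called higher. Without Yoda1 2 it called 0, and 6 of 9 fold changes were above 0 with a median of 0.03. The lone Yoda1 library was then assumed to vary like the controls.

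The cells that supplied these UMIs differed between libraries. The GM gate gave 50.1%, 38.6%, 42.1% and 10.1% of all Hlf UMIs, the stem gate 4.07%, 6.72%, 7.26% and 15.97%, and ungated cells 27.5%, 31.8%, 34.8% and 49.0%. Most Hlf molecules thus came from outside the stem gate in every library. Hoxb5 drew the largest share of the 9 genes from the stem gate, with 8.62%, 12.1%, 17.2% and 26.0%. When each library's gate levels were weighted by the mean make-up of the controls, Hlf was at 61.9, 73.3, 69.6 and 189 CPM and Mecom at 12.5, 16.7, 16.1 and 37.4. The log2 ratio of the group means fell from 1.33 to 0.94 for Hlf, from 1.29 to 0.88 for Mecom and from 0.60 to 0.29 for Hoxa9. Yoda1 2 was still the highest library for all 9 genes. Mllt3 was then at 23.8, 23.6, 23.9 and 32.5 CPM, with Yoda1 1 level with the controls.

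**Figure D4:**
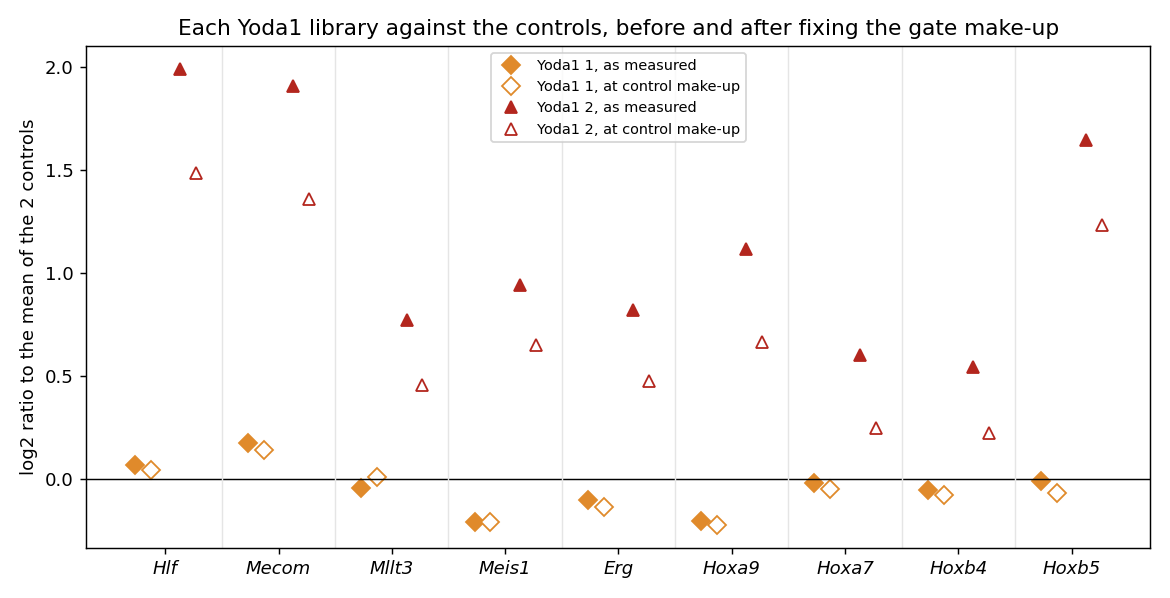
Log2 ratio of each Yoda1 library to the mean of the 2 controls for each gene, as measured over cells with at least 3000 UMIs (filled) and with gate levels weighted by the mean UMI make-up of the controls (open). For Yoda1 2 the open points lie below the filled ones but above 0; for Yoda1 1 both lie nearer to 0.

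Within gates no member was called between Yoda1 and control by edgeR: 0 of 9929 genes in the stem gate (0%), where 155 genes above and 207 below the controls had an unadjusted p under 0.05, 0 of 12493 in the lymphoid gate (0%; 80 and 183), 0 of 16149 in the GM gate (0%; 124 and 201) and 0 of 14172 in the MkE gate (0%; 99 and 102). DESeq2 called 0 members in each, and between 0 and 8 genes. In the stem gate 6 of 9 fold changes were above 0, with a median of 0.14. The sign of that median turned, to -0.11 without control 1 (4 of 9 above 0) and -0.057 with gates on unthinned counts (4 of 9), while it was 0.50 without control 2 (7 of 9) and 0.40 with stem markers alone (8 of 9), a setting chosen after seeing the data. Mecom was the one member with both Yoda1 libraries above both controls there, as were 14.8% of the genes tested, with a log2 fold change of 0.69 ± 0.18 (unadjusted p = 0.00350, edgeR adjusted p = 0.989). Mecom had the same order in the cycling and the non-cycling cells of the stem gate, at the values given above. Those are parts of the same cells and no independent measurement. In cycling cells Mllt3 and Hoxa9 also had both Yoda1 libraries above both controls, and Hoxb4 had both below. In non-cycling cells Erg had both below. The share of all genes with such an order was not computed for these parts. Hlf had a log2 fold change of 0.28 ± 0.20 and Hoxa9 of 0.43 ± 0.26 in the stem gate, and the other 6 lay between -0.13 (Hoxb4) and 0.16 (Hoxa7). The directions of Mllt3, Erg, Hoxa7, Hoxb4, Hoxb5 and Meis1 changed with the library left out.

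Markers of the MkE gate also differed between the groups inside the stem gate. All 9 MkE gate markers were detected there in every library, and their sum was 3251 and 4189 CPM in the controls against 1674 and 378 in the Yoda1 libraries. In the MkE gate itself the sum was 5188, 6561, 5465 and 4911 CPM, and in the GM gate 584, 260, 319 and 184. In these markers the stem gate was thus not alike between the groups. The 4 MkE markers that no gate used overlapped, with sums of 1834, 1980, 2174 and 1602 CPM. The 8 GM gate markers, of which 7 or 8 were detected, summed to 929 and 749 against 807 and 527 CPM. Of the endothelial markers Cdh5 was at 0 in all 4 libraries and the 5 together summed to 27.7 to 47.6 CPM, and the stromal markers summed to at most 1.81 CPM with Col1a1 at 0. The T and NK markers summed to 276 and 257 CPM in the controls and 196 and 155 in Yoda1. Nearly all of it was Nkg7, at 276, 256, 196 and 152 CPM, which alone separated the groups. Cd3e was at 0 in 3 libraries, and Cd3d and Klrd1 were at most 1.13 CPM. The same sum was higher in the GM gate, at 544, 613, 372 and 459 CPM, so it was not particular to T or NK cells. The part of these markers in the Mecom values was not tested.

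In the committed gates the Yoda1 2 library carried more Hlf and Mecom than any other library. The 6 stem markers used for checking, all detected, were highest in Yoda1 2 there as well, with sums of 119, 154, 129 and 226 CPM in the lymphoid gate, 139.6, 161, 134 and 267 in the GM gate and 195, 347, 275 and 429 in the MkE gate, and their part in the result was not tested. The log2 fold change of Hlf was 0.60 ± 0.34 in the lymphoid gate, 0.95 ± 0.39 in the GM gate and 1.19 ± 0.54 in the MkE gate, and that of Mecom was 0.22 ± 0.27, 0.84 ± 0.38 and 1.02 ± 0.49, from the levels given above. Without Yoda1 2 they were -0.16, -0.012 and -0.053 for Hlf, and -0.31, -0.014 and 0.093 for Mecom. Without Yoda1 1 edgeR called Hlf in all 3 gates (1.08, 1.52 and 1.88), Mecom in the GM and MkE gates, and Meis1 in the GM gate, where 0.142%, 0.953% and 0.238% of genes were called higher in the lymphoid, GM and MkE gates. With no filter on low counts it called Hlf and Mecom in the GM and MkE gates, with 0.252% and 0.18% of genes called higher. Mllt3 in the lymphoid gate had both Yoda1 libraries above both controls, as did 10.5% of genes tested, with a log2 fold change of 0.51 ± 0.21 (unadjusted p = 0.0451, edgeR adjusted p = 1.0). In the GM and MkE gates the groups overlapped for all 9 members, and 9.09% and 11.2% of genes had both Yoda1 libraries above both controls.

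The difference between the treatment effects of the stem and GM gates was tested directly, with library as a block. edgeR called 0 members, and 0.0138% of 14488 genes higher and 0.159% lower. The difference was -0.54 ± 0.19 for Hlf (unadjusted p = 0.00575, edgeR adjusted p = 0.620) and -0.44 ± 0.16 for Meis1 (unadjusted p = 0.00684, edgeR adjusted p = 0.652), with the smaller Yoda1-minus-control value in the stem gate. Without Yoda1 1 both were called lower (-1.05 and -0.75, with 1.07% of 15292 genes called lower), and without Yoda1 2 the difference for Hlf was 0.035.

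The lists of related genes gave no call in any comparison of Yoda1 with control. Over all cells 10 of 35 other Hox genes had enough counts, 9 with a fold change above 0 and a median of 0.71 on the log2 scale. In the stem gate 5 were tested, 2 above 0, with a median of -0.04. Hoxa10 was at 3.92, 7.28, 5.19 and 21.2 CPM over all cells and 19.3, 25.9, 22.3 and 34.5 in the stem gate, and was named after its values were seen. Of the 20 other stem cell factors 10 were above 0 over all cells, with a median of -0.01. Nkx2-3, a homeodomain factor, had a log2 fold change of 1.37 ± 0.47, Gata2 of -0.54 ± 0.17 and Myb, a factor of progenitor growth, of -0.43 ± 0.22 (edgeR adjusted p = 0.9999 for each). Of 14 Hox regulators tested 6 were above 0, with a median of -0.08, and Kmt2a had 0.16 ± 0.19.

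The share of cells with a UMI was compared at an equal depth of 3000 UMIs per cell, which left out 226, 252, 154 and 446 shallower cells. Hlf was found in 16.4%, 20.4%, 21.3% and 48.1% of all cells, with both Yoda1 shares above both controls. With 4 libraries the exact permutation test (two-sided) has 6 arrangements and cannot go below p = 0.33, the value found for Hlf, so it cannot pass. Before thinning the shares were 33.5%, 36.4%, 37.6% and 69.6%. At 5000 UMIs they were 20.3%, 24.3%, 23.3% and 57.5%, and the groups overlapped. Meis1 was found in 26.6%, 30.9%, 25.9% and 44.7%, Hoxa9 in 13.4%, 18.0%, 13.7% and 29.2%, Mecom in 4.48%, 6.84%, 6.41% and 17.0% and Hoxb5 in 0.270%, 0.502%, 0.379% and 0.924% of cells, each highest in Yoda1 2. All 9 mean shares were higher in Yoda1, and without Yoda1 2 only 3 were, those of Hlf, Mecom and Mllt3. Shares were computed for the members only, over all cells and in every gate. The count of 9 and the separated shares of Hlf and Mecom thus lack a background. By CPM over all cells, 66.3% of the genes tested were above the control mean in Yoda1 2.

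In the stem gate the shares were 54.0%, 64.7%, 59.7% and 71.6% for Hlf, 19.0%, 25.0%, 29.0% and 32.8% for Mecom and 65.0%, 60.9%, 51.2% and 57.5% for Meis1. Mecom shares were higher in both Yoda1 libraries than in both controls, at the smallest p of the exact permutation test, 0.33. The exact 95% binomial intervals of the Mecom share, which cover counting error only, were 11.8% to 28.1% and 18.4% to 32.6% in the controls and 23.5% to 35.1% and 30.0% to 35.8% in Yoda1, so those of control 2 and Yoda1 1 overlapped. Meis1 shares were lower in both Yoda1 libraries at 3000 UMIs, but the groups overlapped at 5000 UMIs (66.7%, 74.1%, 71.2% and 72.8%) and before thinning (83.0%, 81.4%, 73.4% and 83.9%). The B cell gate (18, 115, 1 and 109 cells) was taken as a background for Hlf only, since Erg was found in 4, 31, 0 and 20 of its cells. Hlf was found in 1, 5, 0 and 17 of them. These shares were also taken at 3000 UMIs, and median depths before thinning are given in brackets. In control 2 the share was 4.35% of B gate cells (10497 UMIs), beside 9.77% in the MkE gate (10624). In Yoda1 2 it was 15.6% (12458), beside 25.3% in the MkE gate (10727) and 37.9% in the GM gate (9172.5). Hlf in the B gate thus also was highest in Yoda1 2, and the part of free RNA in the committed gates was not tested.

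Cells that held 1 member often held another. Over all cells thinned to 3000 UMIs, 33 of the 36 pairs of members were found together more often than their separate shares would give in all 4 libraries. The ratio of observed to expected cells, summed over libraries, ranged from 1.03 (Mllt3 and Hoxa7) to 3.35 (Mllt3 and Hoxb5, 58 cells), with a median of 1.30. For Hlf and Mecom the ratios were 2.99, 2.46, 2.58 and 1.37, and for Hlf and Meis1 1.72, 1.55, 1.62 and 1.18, lowest in Yoda1 2 for both. Inside the stem gate 9 pairs were above 1 in all 4 libraries and the median ratio was 1.07. Hlf and Mecom were then at 1.27, 1.23, 1.21 and 1.06, Mecom and Mllt3 at 1.32, 1.42, 1.65 and 1.28, and Mllt3 and Hoxb5 at 2.08, 1.39, 2.96 and 1.82 on 1, 2, 8 and 15 cells. Such a ratio cannot exceed 1 over the larger share of the pair, so it has less room where a gene is common. Hlf was in 16.4% of control 1 cells, 48.1% of Yoda1 2 cells and 54.0% to 71.6% of stem gate cells. For pairs with Hlf, a lower ratio in Yoda1 2 or in the stem gate therefore does not by itself show a weaker association. Pairs of rarer genes have more room, as Mecom was in 19.0% to 32.8% of stem gate cells and Mllt3 in 24.0% to 28.8%. What lowered the ratios of such pairs in the stem gate was not tested. Cells of a library share its make-up and these ratios carry no test. They were computed for the members only, so the count of 33 pairs lacks a background of other genes. In the GM gate 28 pairs were above 1 in all 4 libraries (median 1.48) and in the lymphoid gate 14 (median 1.18). Over all cells at 5000 UMIs 29 pairs were, with a lowest ratio of 0.92.

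**Figure D5:**
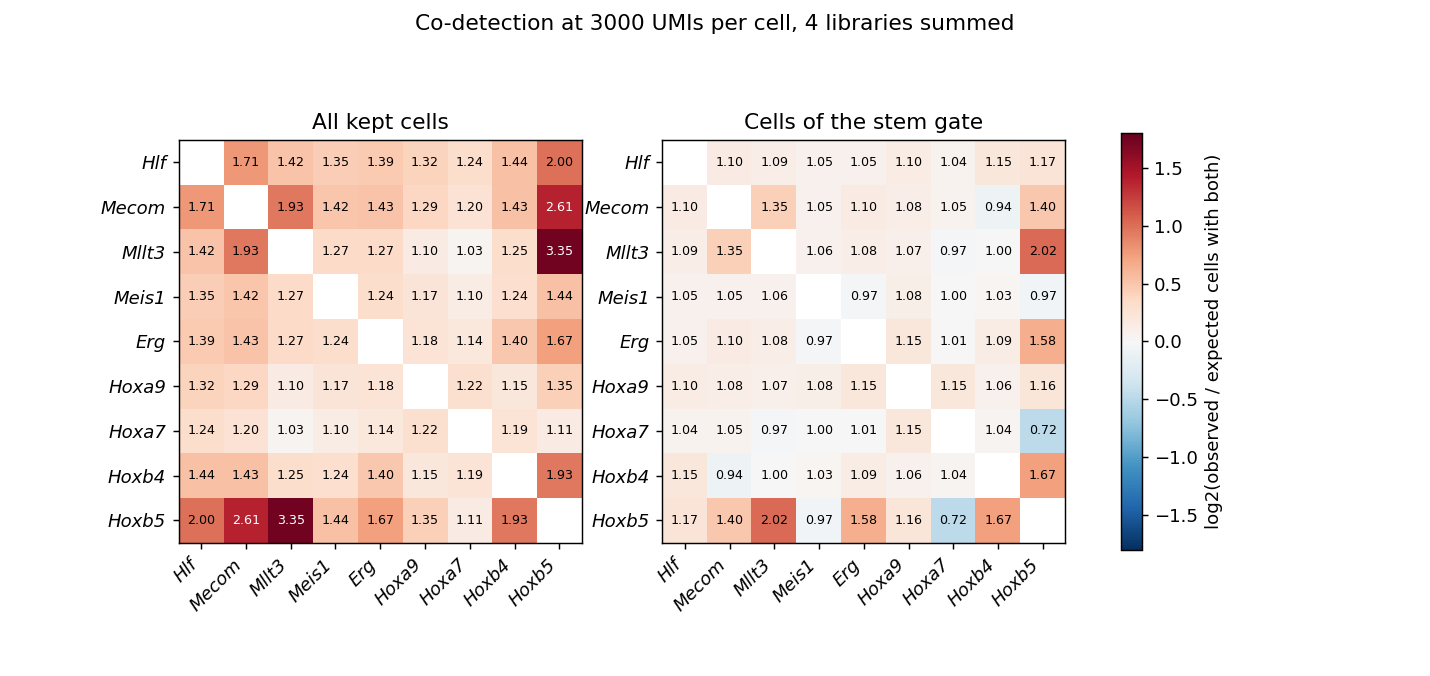
Ratio of observed to expected cells with a UMI of both genes of a pair, at 3000 UMIs per cell and summed over the 4 libraries, in all kept cells (left) and the stem gate (right); the colour is log2 of the ratio printed in each square. Ratios above 1 fill the left panel and lie nearer 1 in the right one, where Mllt3 and Hoxb5 keep the highest, 2.02.

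The mean number of the 9 genes detected per thinned cell was 0.958, 1.19, 1.05 and 1.98 over all cells, and 9.82%, 14.2%, 11.6% and 33.5% of cells held at least 3. In the stem gate the means were 2.27, 2.80, 2.39 and 2.79. There control 2 and Yoda1 2 lay close to each other and above the other libraries, so the groups overlapped. They overlapped in the lymphoid gate too (1.39, 1.51, 1.16 and 1.83), where Yoda1 1 was lowest.

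The members were compared with each other over the 16 sums of 4 libraries and 4 gates. Pearson's r of log2(CPM + 1) with Hlf was 0.98 for Mecom, 0.93 for Erg, 0.90 for Hoxb4, 0.86 for Meis1, 0.77 for Hoxb5, 0.76 for Hoxa9, 0.71 for Hoxa7 and 0.60 for Mllt3. With Hoxa9 it was 0.94 for Hoxa7, 0.90 for Erg, 0.76 for Hlf, 0.72 for Mecom, 0.71 for Hoxb4, 0.57 for Meis1, 0.25 for Hoxb5 and 0.08 for Mllt3. Erg was thus high with both and Mllt3 lowest with both. The points share libraries and gates, so these are descriptions with no test. Of 8543 other genes, those most like Hlf were Gm20467 (r = 0.98), Maged1 (0.98), Gm38197 (0.98), Lmo2 (0.98) and Bex1 (0.97). Gm38197 lies inside Mecom on the same strand (chromosome 3, 30225573 to 30227694), so its counts may include reads of unspliced Mecom RNA. Those most like Hoxa9 were Mylip (0.99), Calcrl, a receptor of stem and lymphoid progenitors (0.98), Basp1 (0.98), Retreg1 (0.98) and Il21r (0.98). Calcrl was at 64.6 ± 7.60 CPM in the lymphoid gate, 41.4 ± 12.0 in the stem gate, 25.2 ± 8.23 in the GM gate and 13.2 ± 6.31 in the MkE gate (SD, n = 4 libraries), the same order of gates as Hoxa9.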

How the data were processed

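The deposited matrices were UMI counts of each gene in each barcode, without normalization, which Cell Ranger 7.1.0 wrote per the file headers. Seurat 4.3.0 and the builds mm10 and GRCm38 appear in the submitters' processing notes. Both a Singleron microwell chip and 10x Genomics appear in the labels, so the capture platform is uncertain. The counting of intronic reads and of strand was not given in the sources used here, and either would change levels of long genes. The 4 libraries held 8236, 8709, 9692 and 10168 barcodes. The 9 members, the gene lists, the markers and the tests were chosen with earlier results of these data known.

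UMIs were summed per library, or per library and gate (at least 50 cells in each of the 4 gates compared; the cycling sums hold as few as 27), and CPM was scaled to the raw total of those cells. Tests were edgeR's quasi-likelihood test (version 4.0.16, R 4.3.3) on genes kept by filterByExpr, with TMM factors, Benjamini-Hochberg adjustment over every gene tested and a threshold of 0.05. The 9 genes all passed the filter except Hoxb5 in the lymphoid gate and in the cycling comparison. SEs of log2 fold changes were derived from the size of the change and its F statistic. Thinning drew 3000 UMIs per cell without replacement (seed 1). No doublet caller was used, and an alternative left out the cells with the most UMIs at 0.8% per 1000 cells. Expected co-detection is the product of the 2 shares. Intervals are exact (Clopper-Pearson) 95% binomial intervals and, like floors, cover counting error only. Calculations used Python 3.11.15, and tests were tried on simulated data. Alternatives were RLE normalization, no filter, DESeq2 1.42.0, each library left out, a stricter cell filter, every barcode, 3 gate markers, gates on unthinned counts, shares without thinning or at 5000 UMIs, the replicate number or library as a block or not, and, added after the data were seen, stem markers alone. Named genes were all members, the 3 per list of lowest unadjusted p among genes at a mean of at least 10 CPM, and the 5 genes most like Hlf and Hoxa9. The values of 1 gene that this rule takes are not reported here. Positions came from GENCODE M21, which holds 52081 of the 55357 gene identifiers.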

Additional observations from a re-analysis of the deposited data

Results flagged for a closer look

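Cells of the dendritic (DC) gate, chosen mainly by MHC class II markers (62, 95, 62 and 178 cells), entered no comparison and held more of 8 members in both Yoda1 libraries than in either control, all but Hoxb4. For Hoxb5 that rests on 0, 1, 1 and 6 UMIs. The values of this section were picked because both Yoda1 libraries lay above both controls, so that order is no separate result. The share of all genes with that order in the DC gate was not computed. Hlf was at 50.5, 85.4, 220.1 and 255 CPM there, a mean of 238 in Yoda1 and 67.9 in control. Mecom had a mean of 51.5 CPM in Yoda1 and 14.8 in control, Mllt3 of 41.9 and 25.4, Meis1 of 149 and 93.3, Erg of 57.8 and 26.3, Hoxa9 of 67.0 and 33.1, and Hoxa7 of 58.5 and 29.6. The sum of the 9 MkE gate markers in these cells was 2763 and 1665 CPM in the controls and 385 and 130 in Yoda1. The stem markers used for checking summed to 209 and 238 CPM in the controls and 296 and 309 in Yoda1, and the GM markers used for checking to 2285 and 2160 against 1386 and 1237. The part of these markers in the result was not tested.

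Cells in no gate, also outside the comparisons, had Mecom at 22.9, 32.9, 34.7 and 64.8 CPM, a mean of 49.7 in Yoda1 and 27.9 in control, and Hoxb5 at 1.01, 1.24, 1.36 and 2.84 CPM, a mean of 2.10 and 1.13. Both Yoda1 libraries were above both controls, and Yoda1 1 lay near control 2. The barcodes left out by the cell filter (616, 887, 570 and 412) had Hoxb4 at 15.4, 27.6, 33.6 and 29.0 CPM on 11, 30, 24 and 14 UMIs, a mean of 31.3 CPM in Yoda1 and 21.5 in control. These values were picked by the same order of the libraries, and the share of all genes with that order was not computed here either. None of these differences was tested.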

How the results depend on the processing

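With 2 libraries per group, and Yoda1 2 apart from the other 3, comparisons of Yoda1 with control rest on single libraries. Leaving out each library in turn, the number of members called ran from 0 to 5 over all cells, 0 to 1 in the lymphoid gate, 0 to 3 in the GM gate, 0 to 2 in the MkE gate, 0 to 2 for the difference between gates and 4 to 7 between cycling and non-cycling cells, and the number with a higher share of positive cells in Yoda1 from 3 to 9. Without a filter on low counts edgeR called 2 members in the GM gate and 2 in the MkE gate. DESeq2, and the fit with no replicate block, each called 4 members in cycling cells. With the replicate number as a block 0 members were called between Yoda1 and control, over all cells and in each gate. Differences between libraries 1 and 2 of the groups correlated at 0.49 across genes, which with only 2 pairs does not establish a pairing. The cause of these changes was not tested.

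Directions that turned belonged to differences that had not been called. In the stem gate, with gates on unthinned counts, Mllt3 was at -0.22 and Erg at -0.17 on the log2 scale. With stem markers alone, a setting chosen after seeing the data, Hoxb4 was at 0.27 and Hoxb5 at 0.40, and Hoxb5 was at 0.026 with no filter, 0.039 in DESeq2 and 0.36 with 3 gate markers. Leaving out libraries, the log2 fold change over all cells ran from -0.14 to 0.78 for Meis1, -0.030 to 0.66 for Erg and -0.13 to 0.96 for Hoxa9. In the stem gate it ran from -0.14 to 0.54 for Mllt3, -0.26 to 0.046 for Meis1, -0.16 to 0.45 for Erg, -0.17 to 0.56 for Hoxa7, -0.40 to 0.14 for Hoxb4 and -0.25 to 0.39 for Hoxb5. It ran from -0.012 to 1.52 for Hlf and -0.014 to 1.42 for Mecom in the GM gate, -0.16 to 1.08 and -0.31 to 0.56 in the lymphoid gate, and -0.053 to 1.88 for Hlf in the MkE gate. The difference between gates ran from -1.05 to 0.035 for Hlf, and Hoxa7 in the stem against the GM gate from -0.012 to 0.25. Differences in the share of positive cells, in percentage points, ran from -2.80 to 16 for Meis1, -0.278 to 6.03 for Erg, -2.08 to 13.5 for Hoxa9, -0.626 to 6.86 for Hoxa7, -0.398 to 1.74 for Hoxb4 and -0.00711 to 0.538 for Hoxb5. The counts of members called between gates stayed within 1.5 times their value under every alternative run. The share of cells in the stem gate, higher in Yoda1 by a mean of 5.32 percentage points, kept its direction but not its size: the difference was 1.06 without Yoda1 2, 9.58 without Yoda1 1, 2.12 with at least 3 gate markers and 9.64 with gates on unthinned counts.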
